A study of Mus musculus with 12 samples.

Results

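The genes described here are the matrix metalloproteinases (MMP), the ADAM and ADAMTS proteases, the ADAMTS-like proteins and the tissue inhibitors of metalloproteinases (TIMP). A gene was taken as a member where its symbol was Mmp, Adam, Adamts, Adamtsl or Timp followed by a number and at most 1 letter. This gave 71 members of the 27825 genes in the table: 20 MMP, 23 ADAM, 19 ADAMTS, 5 ADAMTS-like and 4 TIMP genes. The rule itself used symbols and no measured value, but it was set with earlier results of these data known. Of the 71 members, 66 had a mean of at least 10 normalized counts over the 12 libraries and were tested. The other 5 (Mmp1a, Mmp7, Mmp21, Adam1b and Adam4) had means between 4.25 and 8.93.

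The study measured RNA by bulk RNA-seq in cells sorted as endothelial from male ROSA26-eYFP+/+ Cdh5-CreERT2+ mice, a genotype shared by all 4 groups. In these mice a tamoxifen-dependent Cre recombinase under the Cdh5 promoter, which is active in endothelium, switches on a yellow fluorescent protein. All mice ate a tamoxifen diet from 6 weeks of age for 2 weeks, and from 8 weeks of age were kept for 12 to 13 weeks on normal chow (5.8% fat) or on the high fat diet (60% fat). Mesentery and epididymal fat pads of 6 mice were pooled per sample and digested with actinomycin D present, and the groups were mesentery on chow, mesentery on high fat diet, epididymal fat on chow and epididymal fat on high fat diet, with 3 libraries each (A, B and C). Every library carries a number in its label, 50 to 53 or 87 to 88. The 87 to 88 range holds 1 library of each group (C on chow, A on high fat diet). The labels do not say what the number marks, and they speak of 2 independent replicates, so p-values measure the spread between these libraries, which may be in part technical.

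Metalloproteinases of the MMP family are made as inactive precursors that cut collagens, elastin and other matrix proteins once their propeptide is removed. ADAM proteins sit in the plasma membrane, and many release the outer parts of other membrane proteins. Some ADAM members, Adam11, Adam22 and Adam23 among them, have no catalytic site. ADAMTS proteases are secreted and cut proteoglycans, procollagens and von Willebrand factor. TIMPs bind the active site of many of these enzymes and block it, and in fat the balance between both sides is known to take part in vessel growth and in the remodelling of the matrix around enlarging fat cells. The ADAMTS-like proteins share the ancillary domains of ADAMTS proteases and have no protease domain.

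Libraries held 8348897 to 25397963 reads assigned to the listed genes. A count of 3 reads, the limit that a count of 0 allows, equals 2.12 to 4.22 normalized counts, and such limits cover counting error only. Mitochondrial genes took 20.6% of the reads in the mesentery chow library A and 2.50% to 11.5% in the others. All 8 endothelial markers checked (Cdh5, Pecam1, Kdr, Tie1, Tek, Erg, Emcn and Cldn5) were present in every library, with a summed level of 64775 to 94542 normalized counts in mesentery and 27545 to 58261 in epididymal fat. Markers of other cell types were present too. The 6 fibroblast markers summed to 4450 to 9584 in mesentery and 18121 to 60130 in epididymal fat, and the 6 smooth muscle and pericyte markers to 1249 to 3743 and 5818 to 22190. The 8 macrophage markers summed to 841 to 3649 in mesentery, 1442 to 7472 in epididymal fat on chow and 17949 to 42714 on high fat diet. The 5 adipocyte markers summed to 1643 to 7460 in mesentery, 21301 to 27018 in epididymal fat on chow and 3452 to 11470 on high fat diet. The 5 pancreatic acinar markers, enzymes made by the exocrine pancreas, summed to 13088 to 70310.5 in mesentery and 182 to 548 in epididymal fat, where 4 of them (Cpa1, Prss2, Ctrb1 and Pnlip) were at 0 in at least 1 library. In such bulk samples, fewer cells of a type and less RNA per cell cannot be told apart.

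Levels of different genes were compared per kilobase of annotated exon. In mesentery on chow the highest members per kilobase were Adam15, a membrane protease known in endothelium, at 642 ± 71.3 normalized counts per kilobase (SD, n = 3), Timp3, which stays bound to the matrix, at 603 ± 52.7, and Timp4 at 272 ± 66. The levels of Adam15 and Timp3 lay within 1 SD of each other, and about 20.6% of the exon length of Adam15 overlaps an antisense gene on the opposite strand. In epididymal fat on chow Timp4 led with 6546 ± 1531 normalized counts per kilobase, ahead of Timp2 with 1189 ± 361 and Timp3 with 1099 ± 264. The levels of Timp2 and Timp3 lay within each other's SD. In epididymal fat on high fat diet Mmp12 led with 3625 ± 1853 normalized counts per kilobase, then Timp2 with 2386 ± 446 and Timp4 with 1884 ± 889, and these 3 levels overlapped within about 1 SD. Adam10, the sheddase of Notch receptors, kept a narrow range of 228 to 278 normalized counts per kilobase over the 4 group means. Adamts13, the von Willebrand factor protease, was low in all groups, with 1.98 to 45.8 normalized counts per library.

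On each diet 3 of the 4 TIMPs were higher in epididymal fat than in mesentery, Timp2 and Timp4 on both, Timp3 on chow and Timp1 on high fat diet. Timp4, known for a restricted tissue range that includes fat, measured 1356, 1400 and 2051 normalized counts in mesentery on chow and 4707, 962 and 2363 on high fat diet. In epididymal fat Timp4 measured 48995, 33692 and 33057 normalized counts on chow and 5772, 16246 and 11299 on high fat diet. All 6 epididymal libraries were above all 6 mesentery libraries, and within epididymal fat all chow libraries were above all high fat libraries. On chow the tissue difference was 4.59 ± 0.48 on the log2(normalized count + 1) scale (SE, n = 3 and 3; limma adjusted p = 5.49e-05), and on high fat diet it was 2.21 ± 0.48 (limma adjusted p = 0.0138). The second call was lost without mesentery high fat library B, epididymal high fat library B or epididymal high fat library C, with limma adjusted p = 0.0566 to 0.0659.

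Timp2, which also takes part in activating the gelatinase Mmp2 at the cell surface, measured 474, 487 and 539 normalized counts in mesentery on chow and 937, 438 and 1283 on high fat diet. In epididymal fat Timp2 measured 5530, 5354 and 3011 normalized counts on chow and 9483, 7474 and 10932 on high fat diet. The tissues did not overlap on either diet, with log2 differences of 3.16 ± 0.34 on chow (limma adjusted p = 6.13e-05) and 3.51 ± 0.34 on high fat diet (limma adjusted p = 3.45e-05). Both calls held in all 24 alternative fits and left-out libraries.

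Timp3 measured 4678, 4648 and 5405 normalized counts in mesentery on chow and 6672, 6240 and 6501 on high fat diet. In epididymal fat Timp3 measured 9750, 10579 and 6517 normalized counts on chow and 3224, 6161 and 4982 on high fat diet. In mesentery every high fat library was above every chow library, whereas in epididymal fat every high fat library was below every chow library. The tissue difference on chow was 0.84 ± 0.25 (log2, limma adjusted p = 0.0402) and was not called in 12 of 24 alternatives, among them 8 of the 12 left-out libraries (mesentery chow A and B, all 3 mesentery high fat libraries, epididymal chow A and B, and epididymal high fat C; limma adjusted p = 0.0546 to 0.172). The tissue difference of Timp3 on high fat diet was -0.48 ± 0.25 (limma adjusted p = 0.296). About 21.3% of the exon length of Timp3 overlaps Syn3 on the opposite strand. Whether counting used the strand is not given in the sources used here.

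Timp1, a TIMP made by many cell types under inflammatory signals, measured 19.4, 16.1 and 67.6 normalized counts in mesentery on chow and 88.8, 40.2 and 82.0 on high fat diet. In epididymal fat Timp1 measured 176, 85.1 and 53.1 normalized counts on chow and 966, 424 and 639 on high fat diet. The tissues did not overlap on high fat diet, and the log2 difference was 3.25 ± 0.58 (limma adjusted p = 0.00403), called in all 24 alternatives. On chow the epididymal library C lay below the mesentery library C, and the difference of 1.70 ± 0.58 was not called (limma adjusted p = 0.0756). It was called in 3 of 24 alternatives. These were the fits without mesentery chow library C or epididymal chow library C, both numbered 87 (limma adjusted p = 0.00982 and 0.0408). The third was the fit of the libraries numbered 50 to 53 alone (log2 difference 2.73, limma adjusted p = 0.00455). Timp1 lies within Syn1 on the opposite strand.

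**Figure D1:**
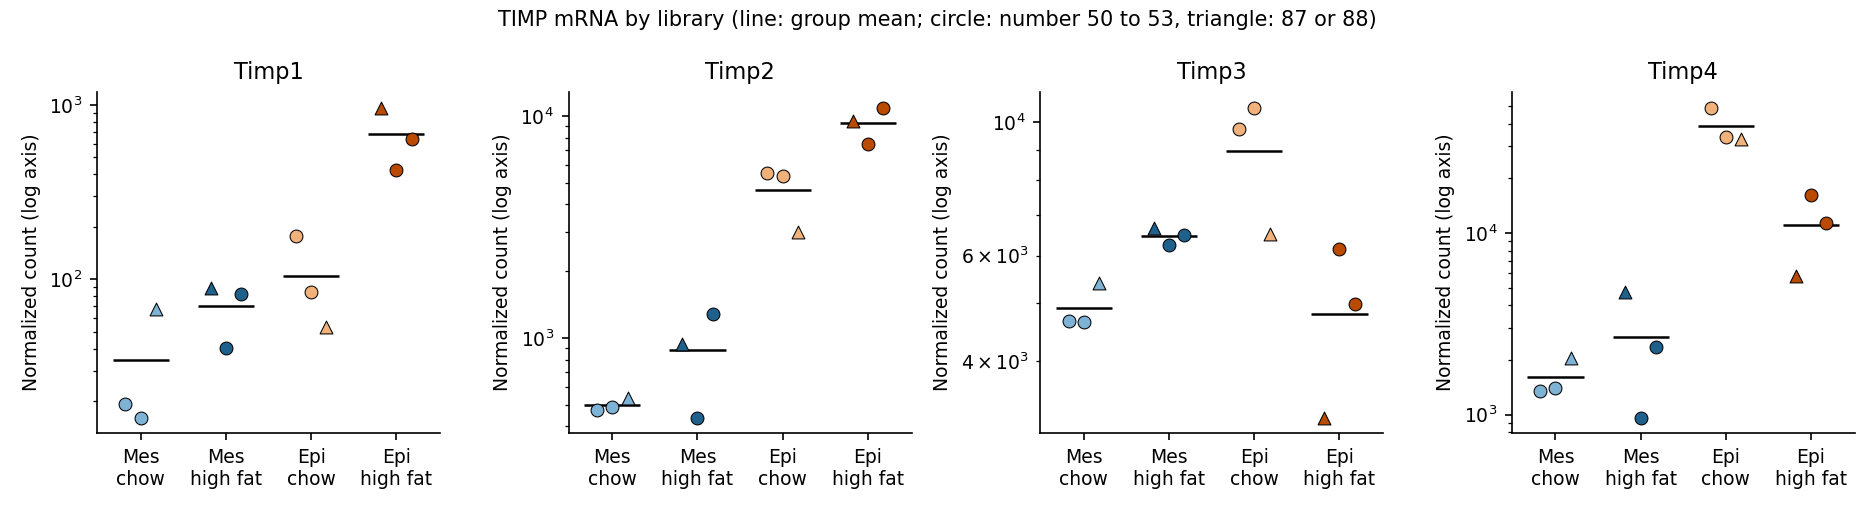
Normalized counts (log axis) of the 4 TIMP genes in each of the 12 libraries by group, with group means as lines; circles are libraries numbered 50 to 53 and triangles those numbered 87 or 88. Timp4 and Timp2 are higher in all 6 epididymal libraries, and the high fat libraries of Timp3 lie above chow in mesentery and below chow in epididymal fat.

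Summed per kilobase, the make-up of the TIMP mRNA differed by group. In mesentery Timp3 made up 41.8% to 70.5% of the TIMP sum in the 6 libraries. In epididymal fat on chow Timp4 made up 67.4% to 77.5%, and on high fat diet at most 46.6%. The share of Timp2 in epididymal fat was 10.7% to 16.2% on chow and 32.5% to 49.7% on high fat diet, and that of Timp1 was 0.826% to 1.78% and 8.09% to 22.2%. The chow and high fat ranges of these 3 shares did not overlap in epididymal fat. The sum of TIMP mRNA per kilobase was 8.57 to 10.9 times the sum of MMP mRNA in epididymal fat on chow and 0.854 to 2.21 times on high fat diet. Without Mmp12 the epididymal high fat ratios were 3.76 to 5.05, still below the chow libraries. In mesentery the ratios were 2.60 to 3.17 on chow, and 1.07, 4.09 and 4.62 in high fat libraries A, B and C. Without Mmp12 the mesentery ratios were 2.62 to 3.23 on chow and 4.13 to 5.42 on high fat diet, so there all high fat libraries lay above the chow libraries. Mmp12 made up 80.3% of the MMP sum in mesentery high fat library A. These ratios compare mRNA levels and say nothing of protein.

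**Figure D2:**
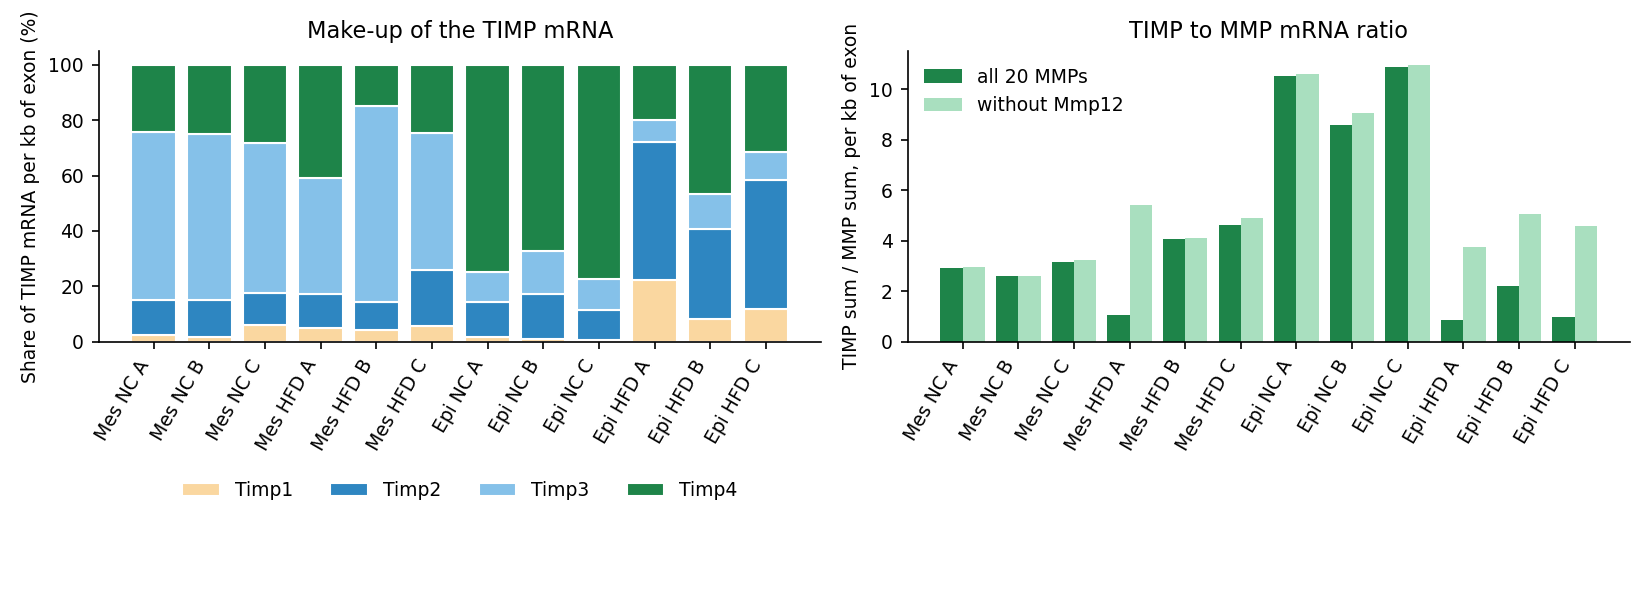
Left, share of each TIMP in the summed TIMP mRNA per kilobase of exon (%) in the 12 libraries; right, ratio of summed TIMP to summed MMP mRNA per kilobase with all 20 MMP genes and without Mmp12. The Timp4 share is 67.4% to 77.5% in epididymal fat on chow and at most 46.6% on high fat diet.

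Between tissues on chow, 14 of the 66 tested members differed, 9 higher and 5 lower in epididymal fat. Over all 22238 genes tested, 12.8% differed (7.32% higher and 5.47% lower). For the mice on high fat diet 17 members differed, 13 higher and 4 lower, where over all genes 8.34% differed (4.91% higher and 3.43% lower). The median log2 difference over tested members was -0.08 on chow and 0.23 on high fat diet, and over all genes tested -0.08 and 0.06. With columns rescaled to the same total, the median of all genes moved from 0.06 to -0.12 on high fat diet and the share of higher calls among all genes from 58.9% to 35.3%, while members still gave 17 calls (12 higher, 5 lower). On chow the same rescaling moved the share of higher calls among all genes from 57.2% to 67.3% and gave 12 member calls (9 higher, 3 lower). Counts moved most on high fat diet, to 9 members without epididymal high fat library C and 11 without mesentery high fat library B, and on chow to 22 in the libraries numbered 50 to 53 alone (21 on high fat diet). The calls over all genes moved as well. On high fat diet they went from 1854 to 728 and 815 without these libraries. In the libraries numbered 50 to 53 they went from 2843 to 4349 on chow and from 1854 to 2514 on high fat diet. Of the members, 10 were called on both diets, all in the same direction, 4 on chow alone and 7 on high fat diet alone, which is no test of a difference between diets.

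Among the gelatinases, which cut denatured collagen and basement membrane collagen, Mmp2 measured 11.4, 31.4 and 81.7 normalized counts in mesentery on chow and 47.7, 9.70 and 55.3 on high fat diet. In epididymal fat Mmp2 measured 540, 374 and 222 normalized counts on chow and 527, 513 and 639 on high fat diet. The tissues did not overlap, and the log2 difference was 3.47 ± 0.69 on chow (limma adjusted p = 0.005) and 4.18 ± 0.69 on high fat diet (limma adjusted p = 0.00237). Mmp9 had 0 to 6.92 normalized counts in the 6 mesentery libraries and 21.4 to 137 in the 6 epididymal libraries. Its difference of 4.19 ± 1.22 on chow was called (limma adjusted p = 0.0382), but not with edgeR (adjusted p = 0.0785) nor without mesentery chow A or C, epididymal chow A or B, or epididymal high fat B or C (limma adjusted p = 0.0538 to 0.202). The high fat difference was 4.04 ± 1.22 (limma adjusted p = 0.06).

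Of the membrane-type MMPs, Mmp14, which activates proMmp2 and is needed by sprouting endothelial cells, measured 148, 194 and 190 normalized counts in mesentery on chow and 204, 169 and 222 on high fat diet. In epididymal fat Mmp14 measured 1486, 865 and 573 normalized counts on chow and 1357, 1316 and 1388 on high fat diet. Its log2 differences were 2.35 ± 0.28 (limma adjusted p = 0.000144) and 2.77 ± 0.28 (limma adjusted p = 5.33e-05). Mmp15, another membrane-type MMP, went the other way, with 648, 707 and 393 normalized counts in mesentery on chow and 381, 431 and 401 on high fat diet. In epididymal fat Mmp15 measured 157, 172 and 153 normalized counts on chow and 49.5, 159 and 108 on high fat diet. It was lower in epididymal fat by -1.81 ± 0.36 on chow (limma adjusted p = 0.00499) and -2.08 ± 0.36 on high fat diet (limma adjusted p = 0.00317), with no overlap, and both calls held in all 24 alternatives. Mmp17, anchored to the membrane by a lipid, was lower on high fat diet by -1.45 ± 0.39 (limma adjusted p = 0.0385) and not called in 13 of 24 alternatives, 9 of them left-out libraries (all but mesentery chow B and C and epididymal chow C; limma adjusted p = 0.0569 to 0.139).

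Mmp11, known as stromelysin-3 and for its low activity on most matrix proteins, measured 126, 185 and 118 normalized counts in mesentery on chow and 1038, 1089 and 670 in epididymal fat. It was higher in epididymal fat by 2.69 ± 0.36 on chow (limma adjusted p = 0.000362) and 2.15 ± 0.36 on high fat diet (limma adjusted p = 0.00275). Mmp23 had 0 to 56.8 normalized counts in mesentery, 147 to 299 in epididymal fat on chow and 507 to 574 on high fat diet. It was called on high fat diet (5.26 ± 1.35, limma adjusted p = 0.0294) but not with edgeR (adjusted p = 0.0555), and not without mesentery high fat library A, which had 0 reads, or any 1 of the epididymal high fat libraries (limma adjusted p = 0.0633 to 0.111).

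Among the ADAMTS proteases, Adamts5, a main aggrecanase that also cuts versican, measured 96.8, 60.0 and 88.7 normalized counts in mesentery on chow and 631, 536 and 435 in epididymal fat. It was higher in epididymal fat by 2.7 ± 0.28 on chow (limma adjusted p = 5.21e-05) and 1.99 ± 0.28 on high fat diet (limma adjusted p = 0.000778). Adamts2, a procollagen N-proteinase that trims fibrillar procollagen, was higher by 2.09 ± 0.35 (limma adjusted p = 0.0016) and 3.14 ± 0.35 (limma adjusted p = 0.000111). Lower in epididymal fat were Adamts10, which binds fibrillin microfibrils (-1.10 ± 0.21, limma adjusted p = 0.00449 on chow; -0.92 ± 0.21, limma adjusted p = 0.0186 on high fat diet), and Adamts7, which cuts cartilage oligomeric matrix protein, on chow (-1.86 ± 0.35, limma adjusted p = 0.0035). The Adamts10 call on high fat diet was lost with edgeR (adjusted p = 0.0782) and without mesentery high fat A or B or epididymal high fat A or C (limma adjusted p = 0.0574 to 0.0766). The Adamts7 difference on high fat diet of -1.20 ± 0.35 was not called (limma adjusted p = 0.0512).

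Adamts1, which cuts versican and is known to restrain vessel growth, measured 393, 396 and 502 normalized counts in mesentery on high fat diet and 688, 1060 and 915 in epididymal fat. Its difference there was 1.03 ± 0.29 (limma adjusted p = 0.0429). It was not called in 12 of 24 alternatives, 7 of them left-out libraries (mesentery chow B, all 3 mesentery high fat, epididymal chow B, and epididymal high fat B and C; limma adjusted p = 0.0516 to 0.151). Adamts4, the other classical aggrecanase, differed by 0.93 ± 0.41 on chow and 1.40 ± 0.41 on high fat diet, neither called (limma adjusted p = 0.172 and 0.0533). Adamtsl2, a fibrillin-binding protein without protease activity, measured 171, 146 and 106 normalized counts in mesentery on chow and 127, 247 and 277 on high fat diet. In epididymal fat Adamtsl2 measured 60.3, 35.6 and 36.8 normalized counts on chow and 22.5, 15.7 and 8.49 on high fat diet. It was lower in epididymal fat on both diets, by -1.66 ± 0.47 (limma adjusted p = 0.0342) and -3.74 ± 0.47 (limma adjusted p = 0.000315). The chow call was lost without mesentery chow A or B or any epididymal chow library (limma adjusted p = 0.0549 to 0.133), with columns rescaled to the same total (limma adjusted p = 0.0519) and with the replicate block (limma adjusted p = 0.0609), and the high fat call held in all 24 alternatives.

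Mmp12, Adam8 and Mmp19, whose values by library are given with the diet comparison, were higher in epididymal fat on high fat diet, by 6.26 ± 1.68, 3.62 ± 0.95 and 2.39 ± 0.48 on the log2 scale (limma adjusted p = 0.0363, 0.0321 and 0.00759). On chow their differences of 2.02 ± 1.68, 1.53 ± 0.95 and 1.40 ± 0.48 were not called (limma adjusted p = 0.513, 0.354 and 0.0733). The Mmp12 call on high fat diet was lost with edgeR (adjusted p = 0.425), with DESeq2 (adjusted p = 0.234), and without mesentery high fat B or C, epididymal chow A or any 1 epididymal high fat library (limma adjusted p = 0.0523 to 0.157). The Adam8 call was lost with edgeR (adjusted p = 0.0885) and without mesentery high fat B or C or epididymal high fat A or C (limma adjusted p = 0.0619 to 0.151), and the Mmp19 call without epididymal high fat C (limma adjusted p = 0.0695). Of the 8 macrophage markers 5 were called higher and 1 lower in epididymal fat on high fat diet, and 3 higher and 1 lower on chow, and their part in these differences was not tested.

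Among the widely expressed ADAM sheddases, Adam17, which releases tumour necrosis factor and growth factor receptor ligands, was lower in epididymal fat on chow by -0.57 ± 0.18 (limma adjusted p = 0.0486). This call held in 7 of 24 alternatives and was lost with edgeR (adjusted p = 0.125) and in 10 of the 12 left-out libraries, the exceptions being epididymal high fat B and C (limma adjusted p = 0.0531 to 0.151). Adam15 differed by -0.63 ± 0.24 on chow and Adam10 by -0.09 ± 0.21, neither called (limma adjusted p = 0.12 and 0.851). The 6 fibroblast markers were all called higher in epididymal fat on both diets, as were many of the members above. Epididymal chow library C, numbered 87, had the lowest fibroblast sum of that tissue (18121). It was also the lowest epididymal library for Mmp2 and Mmp14 and, on chow, for Timp2. On high fat diet, epididymal library B had the highest fibroblast sum (60130, against 44599 and 57678 in A and C). Of the 13 members called higher there, library B was the lowest of its group for Mmp2, Mmp14, Timp1, Timp2, Adamts2, Mmp12, Adam8 and Mmp19. It was the highest for Timp4, Mmp11, Adamts5 and Adamts1, and in between for Mmp23. On chow all 5 adipocyte markers and 5 of 6 smooth muscle and pericyte markers were called higher as well, and on both diets 5 of 8 endothelial markers were called lower and 1 higher. On high fat diet no adipocyte marker and 3 smooth muscle and pericyte markers were called higher. All 5 pancreatic acinar markers were called lower in epididymal fat on both diets. Mmp15, Adamtsl2 and Adamts10 shared this direction, as did the 5 endothelial markers called lower. Across mesentery libraries A, B and C the acinar sum fell in that order on both diets, and so did Adamts10. Adamtsl2 fell in that order on chow and rose on high fat diet. Mmp15 was lowest in C on chow and in A on high fat diet. Cela1, the 1 acinar marker that no library lacked, differed by -5.50 ± 0.42 on chow and -4.11 ± 0.42 on high fat diet (log2, limma adjusted p = 4.45e-06 and 5.32e-05). Of the 3 mesothelial markers tested 2 were called higher on chow and 0 on high fat diet, and of the 4 lymphatic endothelial markers 2 were higher and 1 lower on chow and 1 lower on high fat diet. The part of these cell types in the tissue differences was not tested.

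**Figure D3:**
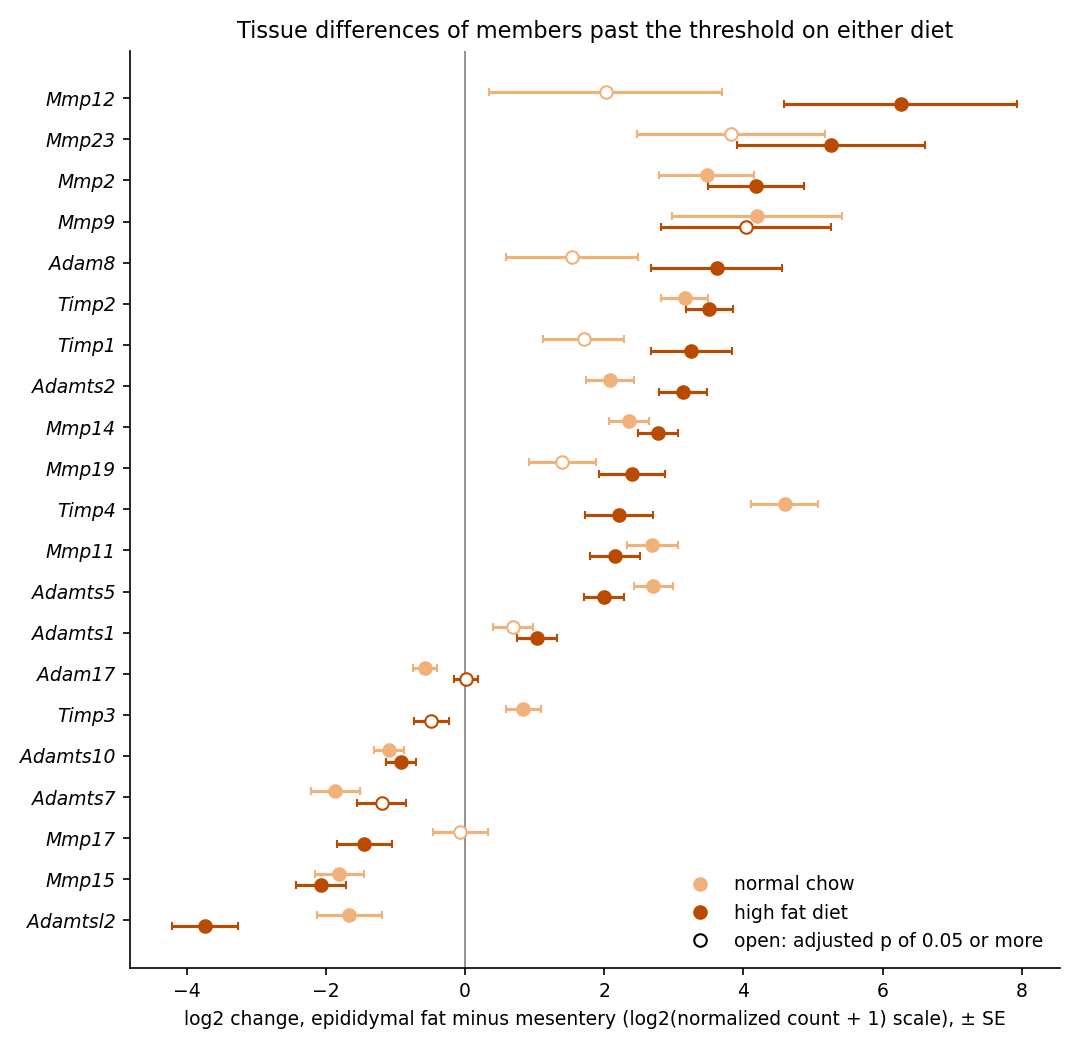
Log2 difference, epididymal fat minus mesentery, with its SE for the 21 members past an adjusted p of 0.05 on either diet; filled points passed and open points did not. Mmp12, Mmp2, Timp2 and Mmp14 are among the higher members and Adamtsl2 and Mmp15 are lower on both diets.

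With diet in epididymal fat, 2 of the 66 tested members rose and none fell, where 0.549% of all genes were called. Adam8, a sheddase known from leukocytes, measured 28.2, 189 and 17.4 normalized counts on chow and 1707, 666 and 1723 on high fat diet. All high fat libraries were above all chow libraries, and the change was 4.75 ± 0.95 (log2, limma adjusted p = 0.0463). Mmp19, a basement membrane protease, measured 53.3, 56.5 and 49.0 normalized counts on chow and 274, 225 and 440 on high fat diet, again with no overlap, a change of 2.49 ± 0.48 (limma adjusted p = 0.0364). Each call held in 11 of 24 alternatives. Neither passed with edgeR on the recovered reads (adjusted p = 0.197 for Adam8 and 0.0768 for Mmp19), both passed with DESeq2 (adjusted p = 0.000388 and 8.17e-06), and both were lost in the libraries numbered 50 to 53 (limma adjusted p = 0.22 and 0.0978). Both were also lost without mesentery chow A, mesentery high fat C, epididymal chow A or C or any 1 epididymal high fat library, and Mmp19 also without epididymal chow B, with limma adjusted p = 0.0512 to 0.305 for Adam8 and 0.0508 to 0.34 for Mmp19. About 22.3% of the exon length of Mmp19 overlaps Tmem198b on the opposite strand.

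The macrophage elastase Mmp12 measured 51.7, 391 and 33.7 normalized counts in epididymal fat on chow and 32080, 10896 and 35723 on high fat diet. All high fat libraries were above all chow libraries, by 8.02 ± 1.68 (log2), the largest diet difference of any tested member in this tissue, with a limma adjusted p = 0.0585 that did not pass. It passed without mesentery high fat A, mesentery high fat B or epididymal chow B (limma adjusted p = 0.00359 to 0.0493) and with DESeq2 (adjusted p = 0.0005), and not with edgeR (adjusted p = 0.285). Timp1 differed on the same scale by 2.77 ± 0.58 and did not pass (limma adjusted p = 0.0587), except in 7 of 24 alternatives, among them the fit without mesentery chow library C (limma adjusted p = 0.0172). Mmp3, known as stromelysin-1 and an activator of other proMMPs, measured 3.92, 8.69 and 39.8 normalized counts on chow and 423, 256 and 351 on high fat diet. Its groups did not overlap, and the difference of 4.76 ± 1.33 was not called (limma adjusted p = 0.187; edgeR adjusted p = 0.228). It was called in 3 of 24 alternatives: with DESeq2 (adjusted p = 0.00251), with only the 2 groups compared, and without mesentery high fat library B, which had 0 reads (limma adjusted p = 0.00808).

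The macrophage markers were measured in the same libraries. In epididymal fat on chow, library B had the highest sum of macrophage markers (7472, against 2342 and 1442 in A and C) and the highest Mmp12 and Adam8, but Timp1 was highest in library A and Mmp3 in library C, which had the lowest sum. On high fat diet library B had the lowest sum (17949, against 35584 and 42714) and the lowest Mmp12, Adam8, Mmp19, Timp1 and Mmp3. The sum, Mmp12, Adam8 and Mmp19 were highest there in library C, and Timp1 and Mmp3 in library A. With diet in epididymal fat 7 of the 8 macrophage markers were higher, with a median log2 difference of 2.52, but none passed the test. Of the 6 fibroblast markers 5 were higher, with a median of 1.87, and 2 passed, both higher. Adgre1 and Fcgr1 were at 0 in 1 mesentery library each, and no macrophage marker was at 0 in an epididymal library. The part of these cells in the diet differences was not tested.

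**Figure D4:**
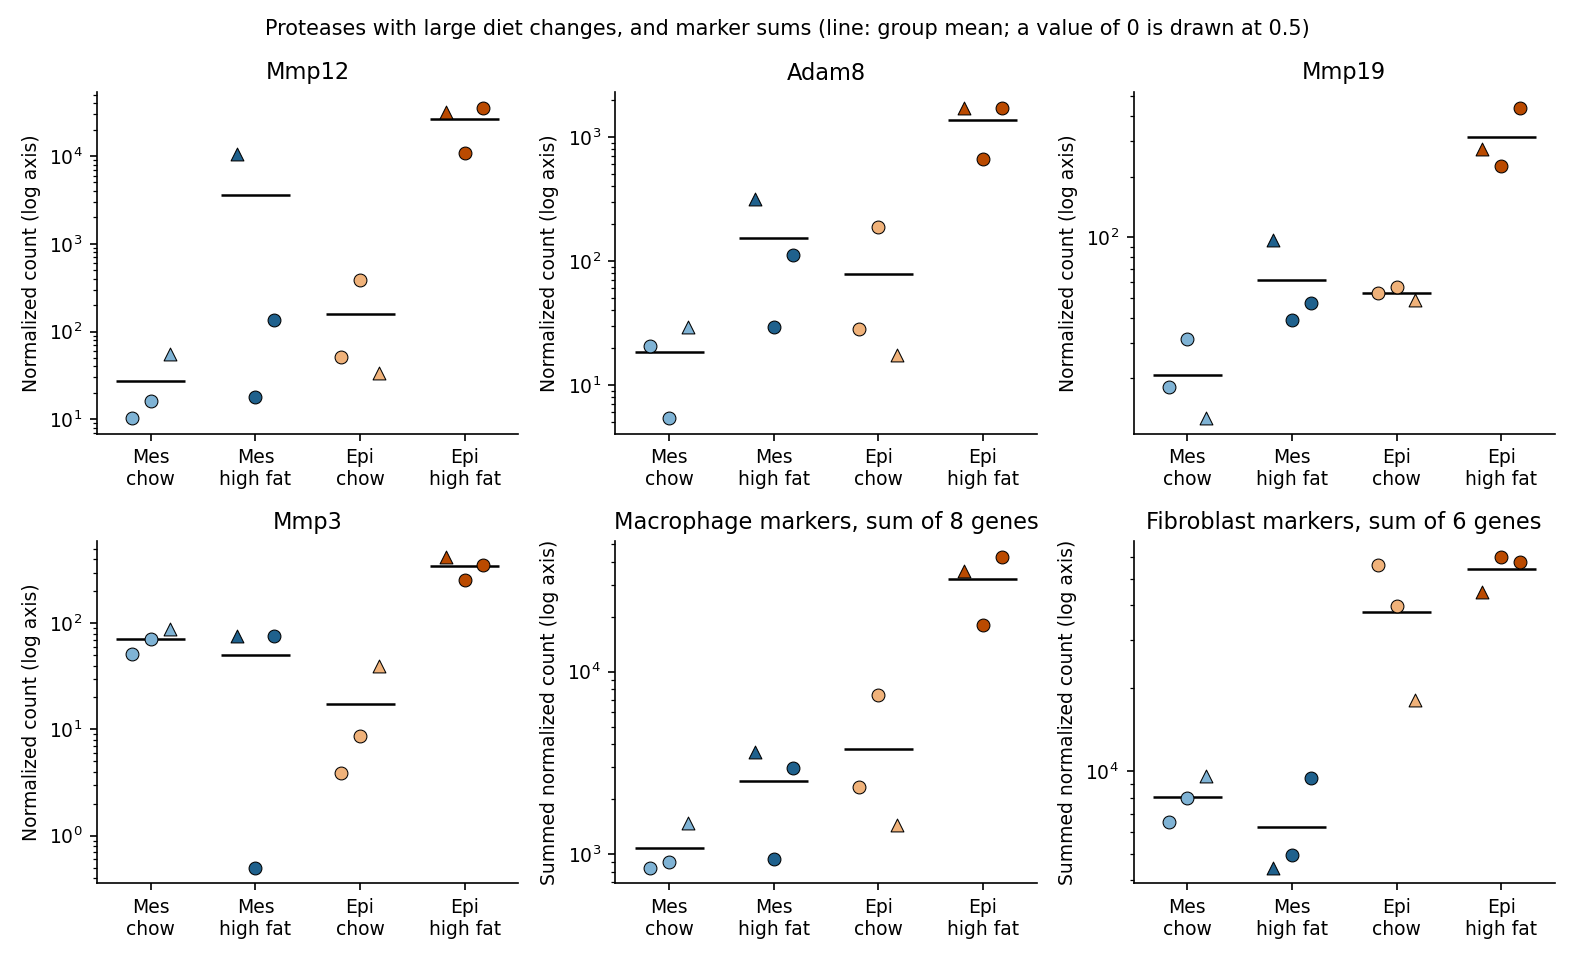
Normalized counts (log axis) of Mmp12, Adam8, Mmp19 and Mmp3 in the 12 libraries with group means as lines (a value of 0 is drawn at 0.5), and the summed levels of the 8 macrophage and 6 fibroblast markers drawn the same way. In the 3 epididymal high fat libraries Mmp12, Adam8, Mmp19, Mmp3 and the macrophage sum are above every epididymal chow library.

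In the opposite direction in epididymal fat, Timp4 differed by -1.90 ± 0.48 and Timp3 by -0.92 ± 0.25 on the log2 scale. No library of one diet overlapped the other. Neither gene passed with limma (adjusted p = 0.145 and 0.166) or edgeR (adjusted p = 0.384 and 0.535). Both passed with DESeq2 (adjusted p = 0.00734 and 0.00868), the only 1 of 24 alternatives to call either. Timp2 differed by 1.04 ± 0.34 and also did not pass (limma adjusted p = 0.299). Adamtsl2, Mmp17 and Adamts15 had libraries that did not overlap between diets, with differences of -1.50 ± 0.47, -1.18 ± 0.39 and -1.28 ± 1.17 (limma adjusted p = 0.272, 0.327 and 1). Adamtsl2 and Mmp17 passed with DESeq2 (adjusted p = 0.0487 and 0.0387) and not with edgeR (adjusted p = 0.374 and 0.562). The adipocyte marker sums of epididymal fat were lower on high fat diet as well, as given above, and 2 of the 5 adipocyte markers passed the test. The smooth muscle and pericyte marker sums were also lower, with 11978 to 22190 on chow and 5818 to 11755 on high fat diet, and none of these markers passed. The part of these cell types in the Timp4 and Timp3 differences was not tested.

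Counted over the tested members, 12 had an unadjusted p under 0.05 for diet in epididymal fat (8 higher, 4 lower), against 6.94% of all genes. On high fat diet 13 members had all 3 libraries above and 5 all 3 below the chow libraries, against 6.93% and 6.57% of all genes. The median log2 difference was 0.30 over tested members and 0.10 over all genes. edgeR called 0 members and DESeq2 9, where limma, edgeR and DESeq2 called 122, 29 and 563 of all genes tested. The count of calls was 0 to 4 when libraries were left out in turn (23 to 176 over all genes) and 0 in the libraries numbered 50 to 53 alone (31 over all genes). The libraries whose removal brought it to 0 were mesentery chow A, mesentery high fat C, epididymal chow A and C, and all 3 epididymal high fat libraries, and without mesentery high fat B it was 4.

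Promoter windows from RefSeq (GRCm38.p6, the bases from 250 before to 50 after an annotated start) were found for 45 of the 71 members, in 50 windows. The build differs from that of the deposited counts, named mm39 in the submitters' processing notes, and the windows serve only to show sequence. The windows of 4 members with large diet differences in epididymal fat that had an entry, and of Timp4, are printed with the letters of the searched motifs in capitals. Positions give the first base of a motif relative to the start. Bases before the start have negative positions, those from the start on have positive ones, and there is no position 0. Both Mmp12 windows are on the plus strand.

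Mmp12, chr9:7344147-7344446, plus strand: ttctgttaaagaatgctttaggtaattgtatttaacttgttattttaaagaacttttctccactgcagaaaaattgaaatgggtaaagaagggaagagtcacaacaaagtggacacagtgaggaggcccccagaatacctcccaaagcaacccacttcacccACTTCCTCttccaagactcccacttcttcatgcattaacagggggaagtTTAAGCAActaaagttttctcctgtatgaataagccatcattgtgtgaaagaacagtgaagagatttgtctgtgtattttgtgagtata

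Mmp12, chr9:7347124-7347423, plus strand: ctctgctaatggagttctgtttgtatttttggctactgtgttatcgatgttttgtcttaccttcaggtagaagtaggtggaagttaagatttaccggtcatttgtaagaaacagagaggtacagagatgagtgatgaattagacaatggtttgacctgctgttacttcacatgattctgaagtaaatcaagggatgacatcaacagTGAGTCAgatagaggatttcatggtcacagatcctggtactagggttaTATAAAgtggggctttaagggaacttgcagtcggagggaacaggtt

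Mmp3, chr9:7445572-7445871, plus strand: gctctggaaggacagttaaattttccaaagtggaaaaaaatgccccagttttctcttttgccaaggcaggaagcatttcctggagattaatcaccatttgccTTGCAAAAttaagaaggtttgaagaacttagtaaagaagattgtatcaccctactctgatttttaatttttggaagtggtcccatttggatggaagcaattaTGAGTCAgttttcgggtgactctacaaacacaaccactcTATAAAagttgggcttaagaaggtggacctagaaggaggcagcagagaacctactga

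Adam8, chr7:139992513-139992812, minus strand: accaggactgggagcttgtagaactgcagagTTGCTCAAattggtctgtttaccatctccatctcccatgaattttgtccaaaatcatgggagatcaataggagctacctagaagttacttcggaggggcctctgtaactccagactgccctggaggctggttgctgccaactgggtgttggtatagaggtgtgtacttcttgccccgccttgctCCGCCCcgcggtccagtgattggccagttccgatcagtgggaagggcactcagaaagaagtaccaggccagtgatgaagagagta

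Timp1, chrX:20869916-20870215, plus strand: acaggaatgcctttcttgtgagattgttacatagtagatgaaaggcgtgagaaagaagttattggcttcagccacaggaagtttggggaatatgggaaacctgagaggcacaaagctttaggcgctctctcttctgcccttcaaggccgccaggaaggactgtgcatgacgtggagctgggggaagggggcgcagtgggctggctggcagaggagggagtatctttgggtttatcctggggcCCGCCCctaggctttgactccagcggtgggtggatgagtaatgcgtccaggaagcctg

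Timp4, chr6:115252156-115252455, minus strand: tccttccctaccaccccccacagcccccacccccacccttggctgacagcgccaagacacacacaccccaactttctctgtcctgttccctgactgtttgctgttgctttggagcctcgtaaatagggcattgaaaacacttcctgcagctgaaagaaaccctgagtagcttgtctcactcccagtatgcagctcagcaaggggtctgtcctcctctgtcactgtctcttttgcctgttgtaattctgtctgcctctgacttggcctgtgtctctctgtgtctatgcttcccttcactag

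Motifs were searched on both strands as plain letters. The first Mmp12 window held a PU.1-type ETS motif (GAGGAAGT, written ACTTCCTC here) at -88 and a C/EBP motif (TTGCNNAA) at -39. The second held an AP-1 motif (TGANTCA) at -44 and a TATA box (TATAAA) at 5. Mmp3 held a C/EBP motif at -148, AP-1 at -46 and a TATA box at -7, and Adam8 a C/EBP motif at -219 and a GC box (GGGCGG) at -35. Timp1 held a GC box at -8, and Timp4 none of the 7 motifs. Of all 32851 windows, 7.81% held AP-1, 3.2% the PU.1-type ETS motif, 10.8% C/EBP, 13.6% the TATA box and 35.7% the GC box. Of the 50 member windows, AP-1 was in 9, the PU.1-type ETS motif in 4, C/EBP in 8, the TATA box in 11 and the GC box in 26. The E-box CACGTG was in 4 (7.15% of all windows) and the NF-kB motif in 0 (1.2% of all). A match describes letters only.

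With diet in mesentery, none of the 66 members passed, where 0.0135% of all genes did. By unadjusted p under 0.05 there were 5 members (4 higher and 1 lower, against 6.15% of all genes). edgeR called 0 members (1 of all genes) and DESeq2 called 1, Mmp12 (150 of all genes). On high fat diet 3 members lay wholly above and 1 wholly below the chow libraries, against 4.47% and 5.14% of all genes. Mmp12 measured 10.2, 16.1 and 54.9 normalized counts on chow and 10638, 18 and 136 on high fat diet. Library A stood apart, and the difference of 3.78 ± 1.68 (limma adjusted p = 0.788) was 1.21 without it. The same library had the highest Adam8 (316, against 29.1 and 111), the highest Mmp19 (97.3, against 38.8 and 47.4) and the highest macrophage sum of the tissue (3649, against 944 and 2981).

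Mmp19 measured 18.2, 31.4 and 12.7 normalized counts in mesentery on chow, below all high fat libraries, a difference of 1.49 ± 0.48 (limma adjusted p = 0.62). Timp3 and Adam12, a sheddase of growth factor binding proteins, also lay wholly above, with 0.40 ± 0.25 and 0.78 ± 0.59 (limma adjusted p = 0.899 and 0.923). Adamts1 was the 1 member wholly below, with 543, 694 and 1191 normalized counts on chow and 393, 396 and 502 on high fat diet, a difference of -0.84 ± 0.29 (limma adjusted p = 0.654). Timp4 and Timp2 differed by 0.49 ± 0.48 and 0.69 ± 0.34 with overlapping libraries (limma adjusted p = 0.952 and 0.841). Without library A of the high fat group the Timp4 difference was -0.06.

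The diet differences of the tissues were then compared directly, as the epididymal difference minus the mesentery difference. No member passed (0.0045% of all genes did), and 6 had an unadjusted p under 0.05 (2 higher and 4 lower, against 4.71% of all genes). edgeR called 0 members (1 of all genes) and DESeq2 called 2, Timp3 and Timp4 (130 of all genes). The lowest unadjusted p among members belonged to Timp3, with -1.32 ± 0.35 (limma adjusted p = 0.463). Mmp3 followed with 6.70 ± 1.88, Timp4 with -2.38 ± 0.69 and Adamtsl2 with -2.07 ± 0.67 (limma adjusted p = 0.536, 0.571 and 0.694). Adam17 with 0.59 ± 0.25 and Adamts2 with 1.05 ± 0.49 had limma adjusted p = 0.997 and 1. Over the 66 members, the diet differences of the tissues, which come from separate libraries, had the same sign in 30 (45.5%, against 53.3% of all genes tested). Pearson's r across these genes was 0.42 and Spearman's rho 0.14, and over all genes tested 0.19 and 0.11. Genes are not independent replicates, and these values describe the libraries.

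**Figure D5:**
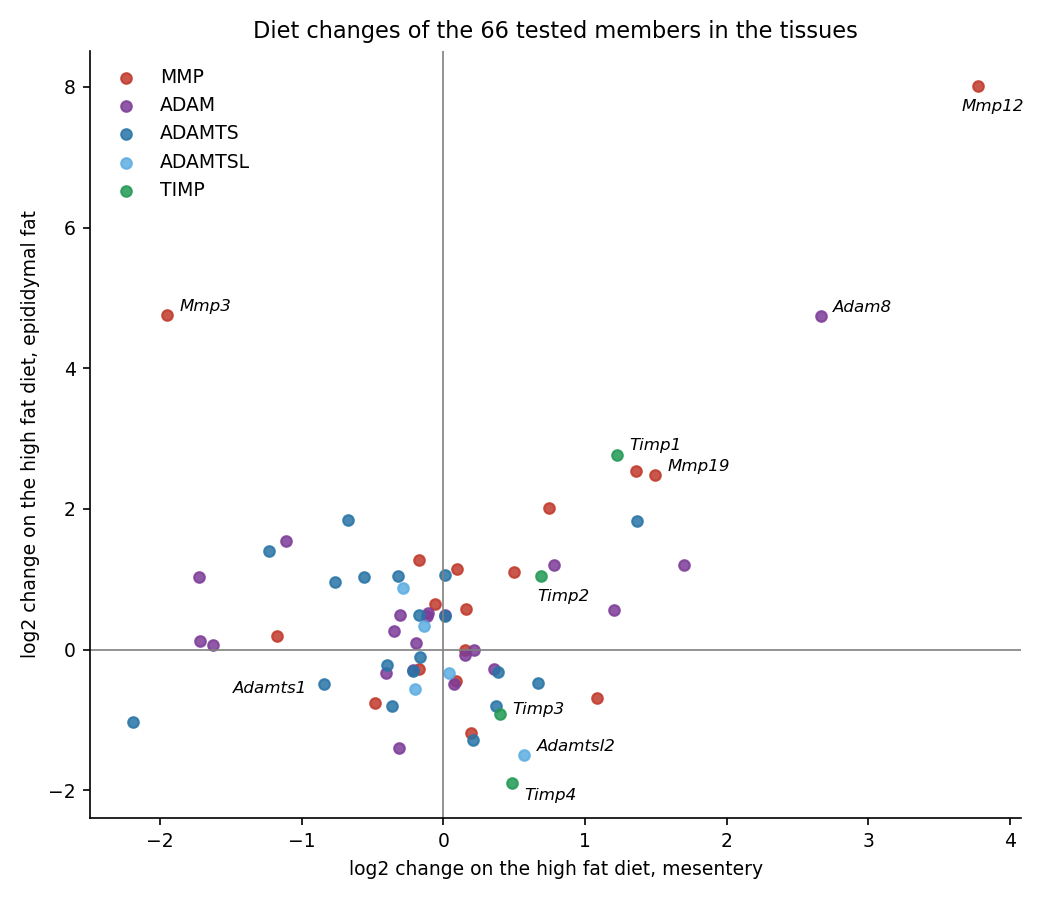
Log2 diet difference (high fat minus chow) of the 66 tested members in mesentery (x axis) and epididymal fat (y axis), each point 1 gene, coloured by family. Mmp12 and Adam8 lie at the upper right, Mmp3 is high in epididymal fat only, and Timp3 and Timp4 lie below 0 in epididymal fat and above 0 in mesentery.

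Genes that act with these proteases, taken from role lists and not from the members, were counted the same way. Of 17 other matrix proteases, 15 were tested. In epididymal fat 3 rose with diet, the lysosomal cathepsins Ctsb, Ctsk and Ctsl, and none passed in mesentery. Between tissues on chow 4 were higher in epididymal fat (Htra1, Htra3, Ctsk and Ctsl) and Bmp1, the procollagen C-proteinase, was lower. On high fat diet 6 were higher, the same 4 with Ctsb and Ctss. Of 17 activators and partners, such as furin-type convertases and tetraspanins, 15 were tested and none passed with diet. On chow the convertase Pcsk6 was higher in epididymal fat, and on high fat diet the plasminogen activator Plau was higher and the tetraspanin Tspan5 lower. Of 10 other inhibitors and clearance receptors, Cst3, which blocks cathepsins, and Lrp1, which takes up protease complexes, were higher in epididymal fat on both diets, Thbs1 was lower on both, and none passed with diet. Of 4 large proteoglycan substrates 2 were tested and none passed in any comparison.

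Among the 71 members, 30 had a mean of at most 50 normalized counts. Apart from Mmp9 and Adamts13 they are not described singly here. They include 11 ADAM genes known mainly from testis and epididymis, of which 9 were tested. No gene of that ADAM group passed in any of the 5 comparisons.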

How the data were processed

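RNA of cells sorted as endothelial was sequenced as paired-end reads in 12 libraries, 4 groups of 3, grouped by sample title. The deposited table holds, per gene and library, a signal that the authors made by dividing read counts by a size factor (normalized counts). STAR 2.7.9a, featureCounts, Subread, DESeq2 1.34.0 and the build mm39 are named in the submitters' processing notes. The use of strand is not given in the sources used here. All values (100%, tolerance 0.0001) were whole reads times 1 step per library, and every gene had at least 51 reads in total, so genes with fewer reads are not listed.

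Testing used limma 3.58.1 under R 4.3.3 (lmFit, then eBayes with trend) on log2(normalized count + 1) for 22238 genes with a mean of at least 10 and all 12 libraries in 1 fit. P-values were adjusted by Benjamini-Hochberg over all genes in a comparison, with a threshold of 0.05. On that scale the differences of low genes are understated. edgeR 4.0.16 (quasi-likelihood, TMM) and DESeq2 1.42.0 on the recovered reads, other pseudocounts, filters, scalings, blocks and left-out libraries were alternatives. edgeR called 1, 29, 1984, 1021 and 1 genes over the 5 comparisons (mesentery diet, epididymal diet, chow tissue, high fat tissue and interaction, in this order). In the same order DESeq2 called 150, 563, 3927, 2931 and 130 genes and limma 3, 122, 2843, 1854 and 1. Scripts were tested on simulated data. Exon lengths and overlaps came from GENCODE M21 (GRCm38), matched by gene ID for 71 of 71 members, and coordinates of the builds were not mixed.

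The members and lists were chosen with earlier results of these data known. Named with values were the TIMPs, members past the threshold with diet, up to 10 each way per tissue comparison, up to 5 each way per diet comparison with a mean of at least 50 and no overlap between diets, the 3 each way with the lowest p for the difference of the diet effects, the 8 with the highest mean, and 10 often cited as endothelial or macrophage proteases. Some further values of these members, among them Mmp11, Adamts5 and Adamts1 between tissues on high fat diet and Mmp12 with diet in mesentery, fall outside this rule and were added after they were seen.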

Additional observations from a re-analysis of the deposited data

Results flagged for a closer look

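Timp3 stood out because all 3 mesentery libraries on high fat diet lay above the chow libraries (6240 to 6672 against 4648 to 5405 normalized counts), whereas all 3 epididymal libraries on high fat diet lay below theirs (3224 to 6161 against 6517 to 10579). The difference of the diet effects was -1.32 on the log2 scale, with an unadjusted p = 0.00219 and a limma adjusted p = 0.463. It passed with DESeq2 (adjusted p = 0.0239) and not with edgeR (adjusted p = 0.95).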

How the results depend on the processing

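Over 59 named log2 differences and 1407 alternative values, 1250 stayed on the same side of the threshold with the same sign, 128 lost and 27 gained a call, and 2 reversed. The reversals came from leaving out 1 library. The Timp4 diet difference in mesentery ranged from -0.061 (without high fat library A) to 1.08 when libraries were left out, and the Timp2 difference of the diet effects from -0.093 (without mesentery high fat library B) to 0.68. For diet in epididymal fat the 2 calls became 1 with pseudocount 0.5, 4 with pseudocount 5, 4 with a mean of at least 50, 0 without a trend, 0 with columns rescaled to the same total, 0 with edgeR, 9 with DESeq2, 5 with only the 2 groups compared, 4 with the number range as a covariate, 0 in the libraries numbered 50 to 53, and 0 to 4 with libraries left out. Over all genes the 122 calls became, in the same order, 107, 147, 174, 1, 105, 29, 563, 173, 169, 31, and 23 to 176. For diet in mesentery DESeq2 gave 1 call in place of 0, and for the difference of the diet effects 2 in place of 0, while all other alternatives, left-out libraries included (0 to 0), gave 0. Over all genes DESeq2 gave 150 calls in place of 3 and 130 in place of 1 in these comparisons. Between tissues on chow the 14 calls became 22 in the libraries numbered 50 to 53 and 10 to 17 with libraries left out. Over all genes 2843 calls became 4349 and 1516 to 3278. On high fat diet the 17 calls became 11 without a trend, 11 with edgeR and 9 to 20 with libraries left out. Over all genes 1854 calls became 1046, 1021 and 728 to 2508. Where fewer samples or genes were not the reason, the cause was not tested.

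The replicate block used the title letter for diet and the number in the labels for tissue. It gave 1 call for diet in epididymal fat (Timp1, while Adam8 and Mmp19 were lost), 0 for diet in mesentery, 13 on chow, 18 on high fat diet and 0 for the difference of the diet effects. The letter does not follow the number range: A is 50 on chow and 88 on high fat diet, and C is 87 and 53. In epididymal fat, same-letter libraries of the diets correlated at -0.675, 0.436 and -0.65 (A, B and C) in their deviations from the group means. Epididymal chow C and high fat A, numbered 87 and 88, correlated at 0.838. With the number range as a covariate, Adam8 and Mmp19 stayed called (limma adjusted p = 0.0412 and 0.0331). The block also ended the tissue calls of Timp3, Adamtsl2 and Adam17 on chow (limma adjusted p = 0.0577, 0.0609 and 0.0765) and of Mmp17 and Adamts1 on high fat diet (limma adjusted p = 0.0759 and 0.0696). Libraries of the tissues were also correlated in their deviations from the group means. Same-numbered ones gave 0.027, 0.53 and 0.583 on chow and -0.149, 0.146 and -0.115 on high fat diet. Differently numbered ones gave -0.676 to 0.521 on chow and -0.229 to 0.227 on high fat diet. On chow each mesentery library correlated most with its same-numbered library, narrowly for A (0.027 against 0.002) and B (0.53 against 0.521). On high fat diet the same-numbered libraries did not stand apart. Rescaling columns to the same total moved the median of all genes from -0.00 to 0.13 for diet in mesentery, from 0.10 to -0.04 for diet in epididymal fat and from 0.11 to -0.16 for the difference of the diet effects. Precision was limited by 3 libraries a group, and members with few reads by depth.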

Other observations

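The 11 ADAM genes known mainly from testis and epididymis varied between libraries of the same group. Their sum in normalized counts was 225, 68.1 and 700 in chow mesentery, 209, 111 and 406 in high fat mesentery, 51.7, 53.9 and 428 in epididymal fat on chow and 498, 52.9 and 81.4 on high fat diet. Of the 30 members with a mean of at most 50 normalized counts, 12 had their highest value in mesentery chow library C and 7 in epididymal high fat library A. The 663 olfactory and vomeronasal receptor genes in the table together had a CPM of 3065 in that mesentery library, 1918 to 2082 in mesentery high fat C, epididymal chow C and epididymal high fat A, and 99.7 to 945 in the other 8.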
